A study of Homo sapiens with 6 samples.

Results

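The E2F family and its dimerization partners were followed in MM.1S cells after knockdown of PRKCN. The members were chosen by name, with earlier results of these data known. They were E2F1 to E2F8 and the DP genes TFDP1 and TFDP2, which made 10 of the 21850 genes listed in the tables. All 10 passed the filter on low counts, which kept 13971 genes for testing. RNA-seq was performed on MM.1S, an established human multiple myeloma line, on day 3 after lentiviral delivery of a short hairpin RNA. The hairpin was directed at PRKCN in 3 libraries (shPRKCN) and was a scramble sequence in 3 libraries (shNT), so that both groups had gone through viral infection. Per the study's methods, constitutive hairpins were carried by a lentiviral vector that also encodes GFP. The labels give the shNT cells as WT and the shPRKCN cells as PRKCN knockdown, do not say which PRKCN hairpin was used, and do not say whether the 3 libraries of a group came from separate cultures, so the p-values measure the spread between these libraries, which may be technical.

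E2F factors are DNA-binding proteins that control the genes needed to enter and complete S phase. E2F1, E2F2 and E2F3 are the classical activators and are held in check by the retinoblastoma protein, E2F4 and E2F5 act mainly as repressors together with the related pocket proteins p107 and p130, E2F6 represses without pocket proteins as part of a Polycomb complex, and E2F7 and E2F8 are atypical repressors that bind DNA without a DP protein. The DP proteins are the partners with which the other E2Fs bind DNA, and E2F1, E2F7 and E2F8 are themselves well known E2F targets whose transcripts follow the cell cycle. Transcripts were measured here in bulk, where a smaller number of cells in a given cell cycle phase and less RNA per cell cannot be told apart. From separate staining assays, the paper reports cell cycle arrest and apoptosis in MM.1S cells with constitutive PRKCN knockdown. The part of either in the values below was not tested.

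Several E2F and DP genes carry E2F-type letters ahead of their own start, and those stretches are shown because they let a reader see the motif that the family shares. Start windows with 250 bases before and 50 bases after each RefSeq start (GRCh38.p14), were searched on both strands for TTTCCCGC, TTTCGCGC, TTTGCCGC and TTTGGCGC, and matches that overlapped were all counted. The windows covered 8 of the 10 members, and E2F5 and E2F8 had none in the table. A match was found in 1164 of all 35116 windows (3.315%) and in 4 of the 11 windows of members. Each line runs 5′ to 3′ on the strand of the gene and stops before the start, with the matches in capitals; the match of E2F1 at left and those of E2F3 and TFDP1 read as the reverse complement of a searched motif.
E2F1, chr20:33686386-33686448, minus strand: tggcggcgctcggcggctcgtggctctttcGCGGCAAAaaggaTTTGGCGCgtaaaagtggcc
E2F2, chr1:23531238-23531305, minus strand: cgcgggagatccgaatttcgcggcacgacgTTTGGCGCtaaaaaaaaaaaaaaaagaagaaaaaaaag
E2F3, chr6:20401796-20401863, plus strand: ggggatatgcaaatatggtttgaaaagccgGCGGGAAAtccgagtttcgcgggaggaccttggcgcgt
TFDP1, chr13:113584603-113584670, plus strand: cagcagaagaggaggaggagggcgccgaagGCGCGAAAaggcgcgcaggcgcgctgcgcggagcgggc

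Counted from the start, with -1 the base just before it, the 2 matches of E2F1 began at -33 and -20, that of E2F2 at -42 and that of E2F3 at -53. The match of TFDP1 lay farther out and began at -120. E2F3 had a second start window without a match, and the windows of E2F4, E2F6, E2F7 and TFDP2 had none of these letters. The shorter cores TTCCCGC and TTGGCGC stand for TTTCCCGC and TTTGGCGC only, and TTTCGCGC and TTTGCCGC were not searched in shorter form. With these cores, 3242 of all windows (9.232%) held a match, and E2F6 and E2F7 then had 1 each. E2F3 went from 1 match to 2, E2F1 from 2 to 1 and TFDP1 from 1 to 0. A match describes letters in the window and is not a measured binding site.

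Library totals ran from 35625564 to 37730003 counts, and the median log2 fold change of all tested genes was 0.00. The target PRKCN is listed under its current symbol PRKD3, and it fell from 1262 ± 41.7 to 517 ± 23.4 CPM (counts scaled by TMM to a common library size; mean ± SD, n = 3 per group), to 41.0% of the shNT level. Plasma cell genes were abundant in every library, with 188162 to 209545 counts of JCHAIN and 32030 to 39099 of SDC1, but not at a steady level: of 9 such markers 5 fell, 2 rose and 2 did not pass the edgeR test. The transcription factors IRF4 and XBP1 fell by 1.85 and 1.28 on the log2 scale, and SDC1 and MAF rose by 0.18 and 0.19. The T cell genes CD3D and CD3G had at most 1 count and the stromal genes COL1A1, COL3A1 and DCN at most 6. CD2, also a T cell gene, had 7 to 29 counts and did not pass the edgeR test (adjusted p = 0.50). The myeloid genes CD14, LYZ and CSF1R had at most 9 counts. Of the other lineage genes, CD3E (379 to 419 counts in controls and 1021 to 1150 after knockdown) and S100A9 (8 to 24 and 49 to 56) rose, and HBB (80 to 145 and 35 to 41) fell. Their part in the results below was not tested.

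After PRKCN knockdown the members moved in both directions. The 3 activators, both atypical members and TFDP1 fell, while the 3 repressors E2F4, E2F5 and E2F6 and the second DP gene, TFDP2, rose. Fell and rose are used for an adjusted p under 0.05 in the edgeR quasi-likelihood test with Benjamini-Hochberg adjustment over all 13971 genes, and a gene is said to be called when its log2 fold change also passed 0.58 in size. By the adjusted p, 6 of the 10 members were lower and 4 were higher, beside 27.8% and 26.5% of all tested genes. With the fold limit, E2F1, E2F7 and E2F8 were called lower (3 of 10, beside 10.6% of all tested genes) and E2F5 was called higher (1 of 10, beside 6.15%). The libraries of the groups did not overlap for any member, with 6 lower and 4 higher, where 29.8% and 29% of all tested genes had non-overlapping groups in the same directions. The plot of CPM by library shows these values, and the plot of fold changes shows their intervals.

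**Figure D1:**
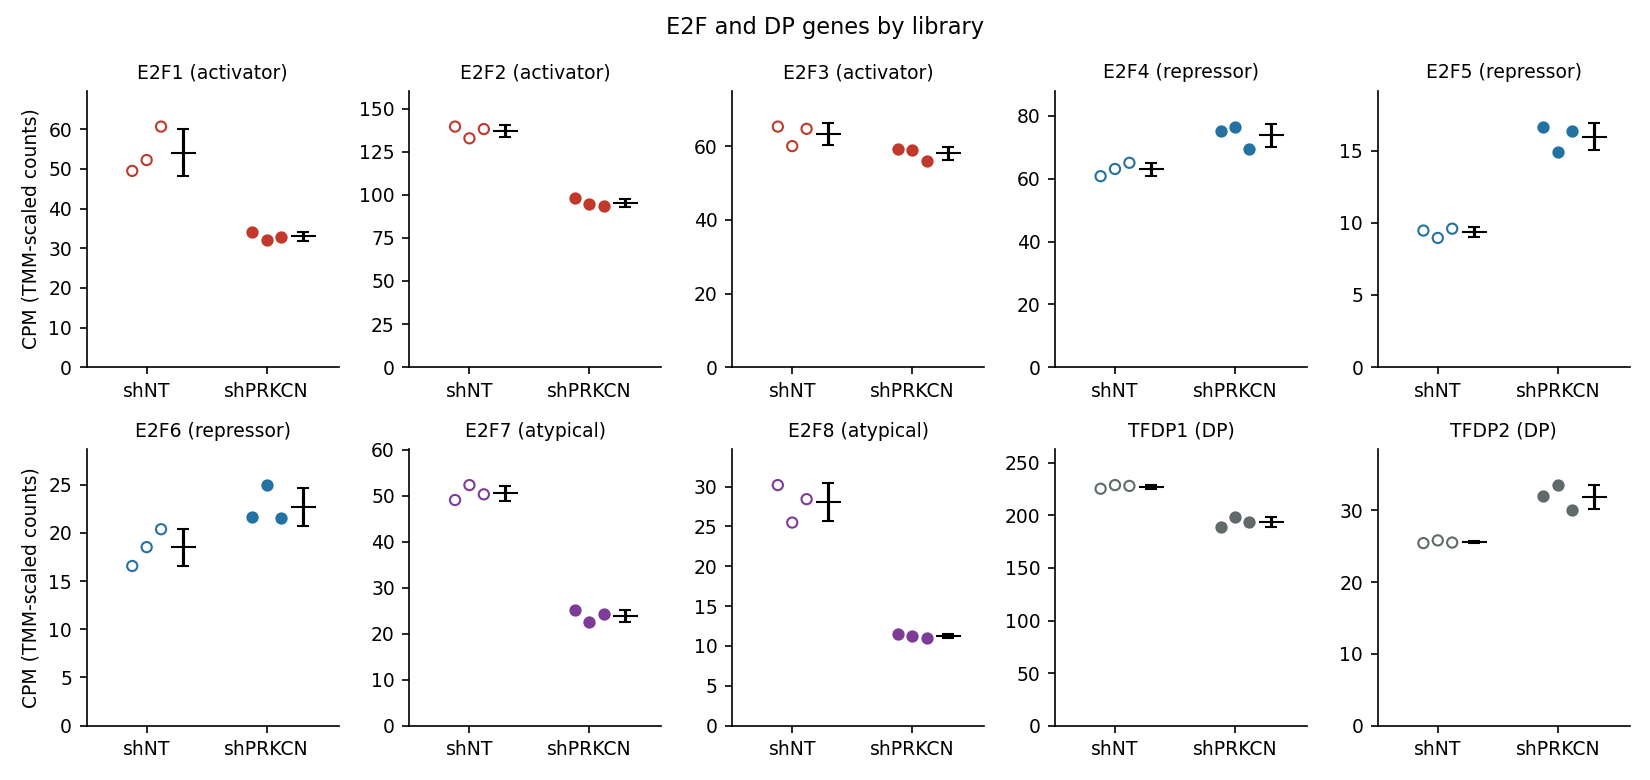
CPM (TMM-scaled counts, y axis from 0, a separate scale for each gene) of the 10 E2F and DP genes in the 3 shNT libraries (open points) and 3 shPRKCN libraries (filled points), with the mean and SD in black beside the points. E2F7 and E2F8 show the widest gaps between groups in proportion to their level, to 47.3% and 40.3% of the shNT mean, and E2F3 the narrowest, to 91.7%.

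**Figure D2:**
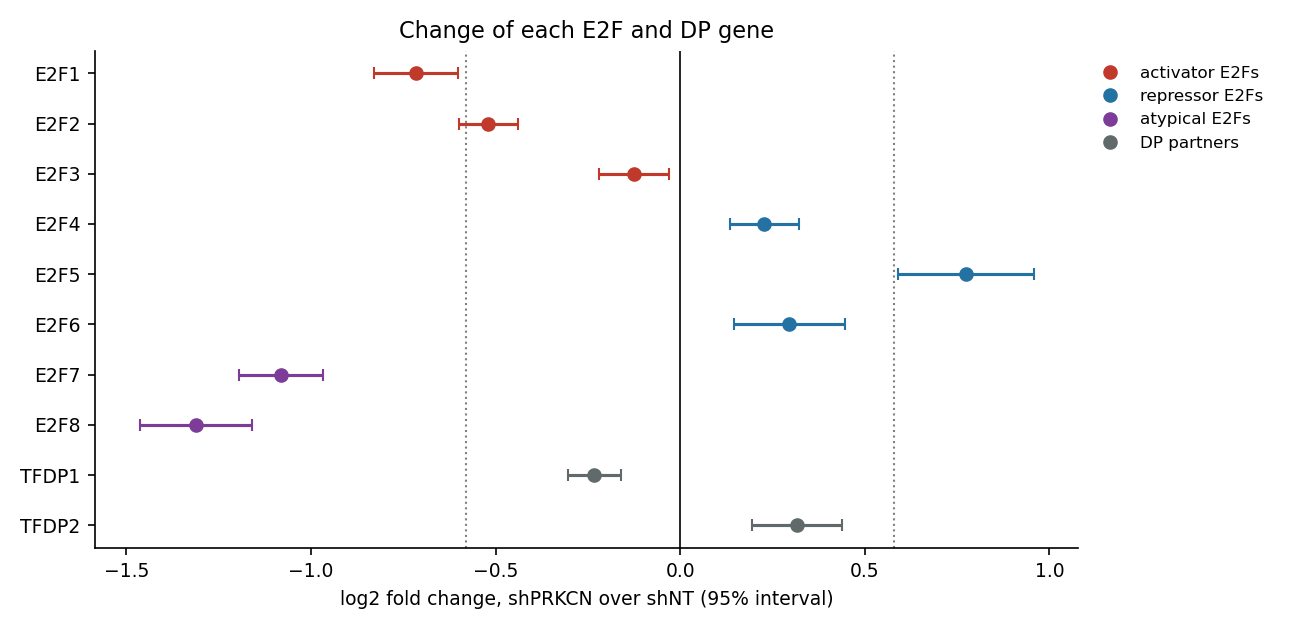
Log2 fold change (shPRKCN over shNT, x axis) of each member, with its 95% interval, coloured by class, and dotted lines at the limits of 0.58 on either side of 0. Activator and atypical members lie left of 0 and repressors right of it, while the 2 DP genes lie on opposite sides at -0.23 and 0.32.

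Among the activators, E2F1, the member best known for driving both S-phase entry and cell death, changed most. It had 1748, 1921 and 2272 counts in the 3 controls and 1275, 1190 and 1245 after knockdown. Every shPRKCN library was below every shNT library, and the shNT libraries were the more spread, with 1 of them, at 60.7 CPM, standing highest. In CPM, E2F1 fell from 54.1 ± 5.83 to 33.0 ± 1.08 (SD, n = 3), a log2 fold change of -0.72 (SE 0.057, edgeR quasi-likelihood adjusted p = 1.0e-17). Leaving out any single library gave -0.78 to -0.63.

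E2F2, another activator, had 4928, 4881 and 5171 counts in shNT and 3664, 3511 and 3554 in shPRKCN libraries. The libraries of each group lay close together and the groups were far apart. E2F2 fell from 137 ± 3.58 to 95.4 ± 2.41 CPM (SD, n = 3), a log2 fold change of -0.52 (SE 0.040, edgeR adjusted p = 1.7e-18). Its 95% interval ran from -0.60 to -0.44 and so held the limit for a call. E2F2 was not called for its size, although its adjusted p was as small as that of E2F1.

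E2F3, which is transcribed from 2 starts as the activator E2F3a and the shorter E2F3b, had 2308, 2208 and 2424 counts in shNT and 2212, 2193 and 2131 in shPRKCN libraries. The counts overlapped between the groups, and only after scaling to library size did the lowest shNT library (60.0 CPM) stand above the highest shPRKCN library (59.2 CPM). E2F3 fell from 63.4 ± 2.90 to 58.1 ± 1.74 CPM (SD, n = 3), a log2 fold change of -0.13 (SE 0.048, edgeR adjusted p = 0.023). The adjusted p of E2F3 was 0.12 without the first shNT library, 0.078 without the third shNT library and 0.16 without the third shPRKCN library, and it ran from 0.011 to 0.16 over 16 alternatives, of which 7 did not pass 0.05. Gene-level counts do not separate the 2 E2F3 forms.

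The repressors went the other way. E2F4, the most abundant E2F per length in both groups and a partner of p130 in resting cells, had 2148, 2321 and 2437 counts in shNT and 2810, 2849 and 2642 in shPRKCN libraries. All 3 shPRKCN libraries were above the highest shNT library. E2F4 rose from 63.0 ± 2.13 to 73.8 ± 3.74 CPM (SD, n = 3), a log2 fold change of 0.23 (SE 0.047, edgeR adjusted p = 2.8e-05).

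E2F5, the close relative of E2F4, showed the largest rise of the family. It had 334, 329 and 359 counts in shNT and 622, 553 and 620 in shPRKCN libraries, so that the lowest shPRKCN library stood well above the highest shNT library. E2F5 rose from 9.33 ± 0.339 to 16.0 ± 0.948 CPM (SD, n = 3), to 171% of shNT, with a log2 fold change of 0.77 (SE 0.092, edgeR adjusted p = 4.2e-11). Its 95% interval reached down to 0.59, close to the limit for a call, and when the change was tested against that limit itself with glmTreat the adjusted p was 0.057 and the gene was not called. E2F5 overlaps RBIS, a ribosome biogenesis gene, on the genome, and reads of the shared stretch cannot be assigned where the strandedness of counting is not known. RBIS had 665, 914 and 735 counts in shNT and 731, 743 and 758 in shPRKCN libraries. The RBIS groups overlapped, with a log2 fold change of -0.09 (SE 0.077, edgeR adjusted p = 0.33).

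E2F6, the Polycomb-linked repressor, had 585, 681 and 763 counts in shNT and 807, 928 and 819 in shPRKCN libraries. The spread within shNT was wide for this gene, and its highest library (20.4 CPM) stood just under the lowest shPRKCN library (21.6 CPM). E2F6 rose from 18.5 ± 1.91 to 22.7 ± 1.95 CPM (SD, n = 3), a log2 fold change of 0.30 (SE 0.075, edgeR adjusted p = 0.00061). With single libraries left out the log2 fold change of E2F6 ran from 0.22 to 0.37.

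The atypical members fell most. E2F7, which represses E2F targets late in S phase, had 1734, 1925 and 1885 counts in shNT and 937, 836 and 919 in shPRKCN libraries. Each shPRKCN library held fewer reads than any shNT library by a wide margin. E2F7 fell from 50.6 ± 1.64 to 23.9 ± 1.32 CPM (SD, n = 3), a log2 fold change of -1.08 (SE 0.057, edgeR adjusted p = 1.8e-26). The change placed E2F7 at percentile 4.00 of all tested genes, counted from the strongest decrease.

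E2F8, the relative with which E2F7 acts, had 1066, 937 and 1064 counts in shNT and 430, 420 and 420 in shPRKCN libraries. The 3 shPRKCN libraries were nearly equal. E2F8 fell from 28.0 ± 2.38 to 11.3 ± 0.228 CPM (SD, n = 3), to 40.3% of shNT, with a log2 fold change of -1.31 (SE 0.076, edgeR adjusted p = 3.2e-24). E2F8 stood at percentile 2.34 of all tested genes. The ratio of E2F7 to E2F8, taken on FPKM (reads scaled for gene length and library size), was 1.25 ± 0.150 in shNT and 1.46 ± 0.0767 in shPRKCN libraries (SD, n = 3). The groups overlapped, and a 2-sided exact permutation test gave p = 0.2 (0.2 after Benjamini-Hochberg adjustment over 3 ratios), where 3 against 3 libraries cannot give less than 0.1.

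The DP partners moved apart. TFDP1, which encodes the main DP protein, had 7956, 8412 and 8536 counts in shNT and 7037, 7388 and 7352 in shPRKCN libraries. The groups did not overlap and differed by a modest margin. TFDP1 fell from 227 ± 1.83 to 194 ± 5.13 CPM (SD, n = 3), a log2 fold change of -0.23 (SE 0.036, edgeR adjusted p = 6.9e-08).

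TFDP2, the second DP gene, had 898, 949 and 955 counts in shNT and 1193, 1246 and 1142 in shPRKCN libraries. All shPRKCN libraries were higher. TFDP2 rose from 25.6 ± 0.201 to 31.8 ± 1.72 CPM (SD, n = 3), a log2 fold change of 0.32 (SE 0.061, edgeR adjusted p = 1.0e-05). Per length, TFDP1 remained far above its relative, and the FPKM ratio of TFDP1 to TFDP2 was 30.8, 30.8 and 31.1 in shNT and 20.5, 20.6 and 22.4 in shPRKCN libraries. The size of this ratio depends on the lengths that the FPKM imply, 3040 bases for TFDP1 and 10572 for TFDP2. The ratio was lower in all 3 shPRKCN libraries, by 0.55 on the log2 scale, with an exact permutation p of 0.1 (0.15 adjusted over 3 ratios), the smallest the design allows.

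Levels of different genes can be compared only per length, so the order within the family is given in FPKM. In shNT libraries E2F4 was highest at 29.6 ± 1.02, followed by E2F2 at 22.7 ± 0.555 and E2F1 at 19.98 ± 2.15, whose ranges overlapped. E2F7 came next at 8.69 ± 0.298, then E2F8 at 7.01 ± 0.581 and E2F3 at 6.96 ± 0.306, which also overlapped. E2F5 at 4.42 ± 0.154 and E2F6 at 3.55 ± 0.368 were lowest (SD, n = 3 throughout). In shPRKCN libraries the first 3 kept this order, with 35.2 ± 1.55 for E2F4, 16.1 ± 0.482 for E2F2 and 12.3 ± 0.507 for E2F1. E2F5 took the next place at 7.66 ± 0.532, ahead of E2F3 at 6.47 ± 0.170. E2F6 at 4.42 ± 0.330 and E2F7 at 4.17 ± 0.271 overlapped, and E2F8 was last at 2.86 ± 0.0628.

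The make-up of E2F transcripts moved accordingly. Summed over the 8 E2Fs, FPKM was 103 ± 3.68 in shNT and 89.2 ± 2.37 in shPRKCN libraries (SD, n = 3), or 86.6% of shNT. Activators made 48.2, 47.6 and 48.9% of that sum in shNT and 39.3, 38.4 and 39.6% in shPRKCN libraries. Repressors made 35.95, 37.2 and 36.4% and then 52.7, 54.1 and 52.3%. Per length, the group that was second in the controls was thus the larger in every knockdown library. This change of order holds with the atypical members, which also repress, counted as a class of their own. Counted together, repressors and atypical members exceeded the activators in every shNT library as well. E2F4 alone went from 28.8 ± 0.591% to 39.5 ± 1.18%. Atypical members made 15.2 ± 0.578% in shNT and 7.88 ± 0.294% in shPRKCN libraries. Within a library, the ratio of E2F1 to E2F4 was 0.638, 0.649 and 0.731 in shNT and 0.356, 0.328 and 0.370 in shPRKCN libraries. The ratio was lower in all 3 shPRKCN libraries, by 0.94 on the log2 scale (2-sided exact permutation p = 0.1, 0.15 adjusted over 3 ratios). Shares of a sum are tied to each other, so that a rise of one class lowers the others. The FPKM imply 1 length per gene, such as 2110 bases for E2F4 and 5970 for E2F2. The order of the classes depends on these lengths. In CPM, which is not scaled for length, activators summed to 245 to 263.5 in shNT and 182.5 to 191.5 in shPRKCN libraries. Repressors summed to 86.85 to 95.05 and then 107.4 to 116.5, so activators stayed the larger class in reads.

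The genes whose pattern was most like that of E2F8 over the 6 libraries, by Pearson correlation of log2 CPM among 8852 genes of at least 10 CPM, were PNRC1 (r = 0.9995), CDKN1A (0.9994) and FAM162A (0.9993). For E2F5 they were CILK1 (0.9993), LMBR1 (0.9976) and RASAL3 (0.9975). With 6 libraries in 2 groups, 318 genes had a correlation above 0.99 with E2F8 and 95 with E2F5, and the values are a description of which genes shared the step between groups.

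The partners and regulators of the E2Fs were read from gene lists, whose counts stand beside the 27.8% of all tested genes that were lower and the 26.5% that were higher. Of 8 pocket protein and MuvB core genes, 7 fell and 1 rose. RB1, the retinoblastoma protein that binds activator E2Fs, fell by 0.77 on the log2 scale from 44.3 ± 2.07 to 26.0 ± 0.852 CPM, and LIN9, of the MuvB core shared by the repressive DREAM complex and its activating counterpart, fell by 0.75 (both n = 3). RBL2, which encodes p130, the pocket protein that E2F4 binds in resting cells, was the gene that rose, from 162 ± 11.04 to 203 ± 4.27 CPM (log2 fold change 0.32, edgeR adjusted p = 6.6e-11). It rose with E2F4 and E2F5, while RBL1 (p107) fell by 0.47. LIN37, of the MuvB core and named after its values were seen, was at -0.26 with an edgeR adjusted p of 0.047, which became 0.26 without the second shNT library, 0.064 without the first shPRKCN library and 0.20 without the third shPRKCN library. RBBP4, at -0.08, passed the test (adjusted p = 0.028) but lost it in 11 of 16 alternatives, among them those without the second shNT library, without the third shNT library and without any single shPRKCN library. In 3 of the 6 fits with a library left out, 5 of the 8 genes were lower.

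Of 9 genes of the G1/S boundary, which encode cyclins, their kinases and CDC25A, a phosphatase that activates those kinases, 8 fell and 1 rose, and 6 were called lower. CCNE2, a cyclin E gene, fell by 1.17 and CCND1, a cyclin D gene, by 1.10 on the log2 scale, both from low levels of 5.07 and 3.43 CPM. The cyclin D gene with the most reads was CCND2, named after its values were seen. It fell by 0.65 from 724 ± 12.3 to 462 ± 7.61 CPM (n = 3). CDK4, the kinase partner of the D cyclins, rose by 0.17 from 107 ± 1.28 to 121 ± 3.81 CPM (n = 3). CCNE1 was at -0.17 with overlapping groups (edgeR adjusted p = 0.038), and the adjusted p was 0.22 without the second shNT library, 0.080 without the third shNT library and 0.35 without the first shPRKCN library. All 4 tested CDK inhibitors also fell. They were CDKN2D (-1.49), CDKN1A (-0.92), CDKN1C (-0.40) and CDKN1B (-0.29), which encode p19, p21, p57 and p27.

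Of 7 genes for E2F turnover and cofactors, 4 fell, 1 rose and 2 did not pass the test. CCNA2, the cyclin A that ends activator E2F binding in S phase, fell by 1.49 from 129 ± 2.55 to 46.2 ± 2.79 CPM, and CCNF, whose protein directs E2F proteins to degradation, fell by 0.74 (n = 3). FZR1 (-0.15), an activator of the anaphase-promoting complex, fell, and HCFC1 (0.10), a chromatin cofactor of E2Fs, rose. Neither passed the test without the third shNT library, with an adjusted p of 0.064 for FZR1 and 0.061 for HCFC1.

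Of 37 genes known as E2F targets at G1/S, 35 fell, 25 of them past the fold limit, and none rose. The median log2 fold change of the list was -0.74, beside 0.00 over all tested genes. RRM2, the regulated subunit of ribonucleotide reductase, had 17185, 17780 and 18264 counts in shNT and 4693, 4560 and 4765 in shPRKCN libraries and fell by 1.96 on the log2 scale (SE 0.035, edgeR adjusted p = 5.5e-53). TK1, thymidine kinase, fell by 1.41. All 6 genes of the MCM2 to MCM7 helicase fell, from -0.36 for MCM3 to -1.19 for MCM4. The smallest change among genes past the test was that of CCNE1 (-0.17). DNMT1 (-0.07) and DCK (-0.10) did not pass the test (edgeR adjusted p = 0.11 and 0.076). CCNE1, CCNE2, CDC25A and RBL1 are counted in 2 of these lists.

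Of the 37 targets, 31 had start windows in the RefSeq table, and 18 of these (58.1%) held at least 1 of the 8-base motifs, beside 3.992% of all genes with a window. The 3.992% covers all genes with a window, tested or not, while all 37 targets were tested. The list was made of genes already known as E2F targets, so its share of motifs is a description and not a test. Of the 11035 tested genes with a window, 744 held a motif and 10291 did not. Of the 744, 35.1% were lower and 22.8% higher by the adjusted p, with a median log2 fold change of -0.05. Of the 10291, 28.0% were lower and 27.1% higher, with a median of 0.01. With the listed targets and the members set aside, 722 genes with a motif remained, of which 33.4% were lower and 23.6% higher. This comparison of genes by motif was chosen after the data were seen, no test was made of the differences, and the plot of tested genes by motif shows how close the curves lie. Members with a motif were at -0.72 for E2F1, -0.52 for E2F2, -0.13 for E2F3 and -0.23 for TFDP1, where 49.9% of all tested genes were below 0. Members with a window but no such motif went both ways, with E2F7 at -1.08, E2F4 at 0.23, E2F6 at 0.30 and TFDP2 at 0.32. Of these, E2F7 and E2F6 held a shorter core. E2F8, the member that fell most, and E2F5 had no window.

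**Figure D3:**
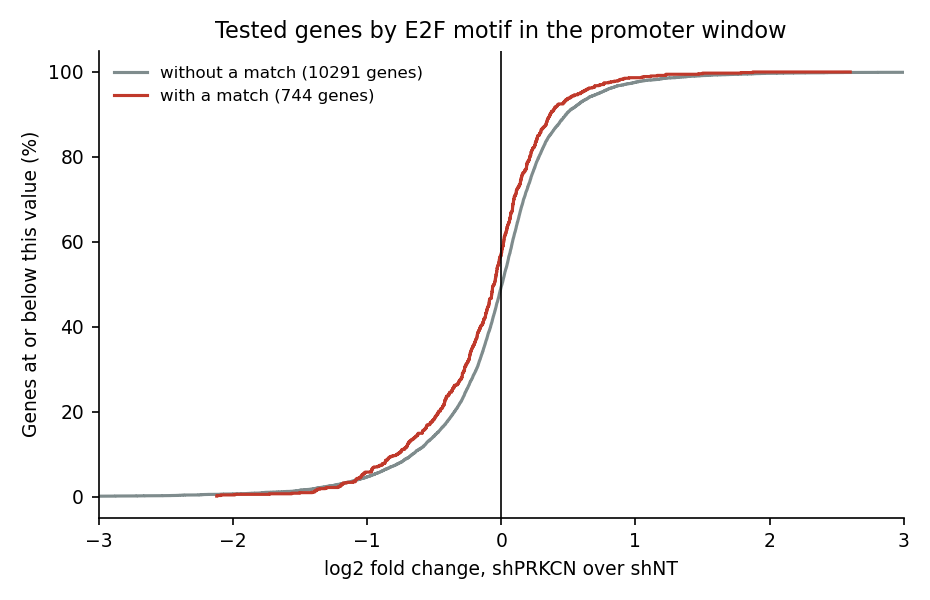
Cumulative share (%, y axis) of tested genes at or below each log2 fold change (x axis, shPRKCN over shNT) for 744 genes with an 8-base E2F motif in the start window (red) and 10291 without (grey). The red curve runs slightly to the left through the middle of the range, with medians of -0.05 and 0.01.

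E2F6 works with a variant Polycomb complex, PRC1.6. Of 12 genes of that complex, 2 fell, 3 rose and 7 did not pass the test, and none was called, with a median log2 fold change of -0.03. HDAC1, a histone deacetylase, rose by 0.37, and WDR5, a WD-repeat scaffold protein, by 0.15. CBX3, a heterochromatin protein, fell by 0.27 and MAX, which binds DNA in the complex, by 0.18. WDR5 did not pass the test without the second shNT library (edgeR adjusted p = 0.12) or without the second shPRKCN library (0.054). The other gene that rose, RYBP (0.12, edgeR adjusted p = 0.030), was named after its values were seen and did not pass the test without shNT library 1 (0.085) or 3 (0.097), or without shPRKCN library 1 (0.11) or 3 (0.071). With any single library left out, 2 of the 12 genes were higher. Of 9 germline genes that the complex silences, 4 were listed and 1 was tested. This was STAG3, with 13, 22 and 6 counts in shNT and 13, 0 and 10 in shPRKCN libraries, which did not pass the test (edgeR adjusted p = 0.22).

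Of 9 death genes linked to E2F1, 4 fell, 1 rose and 4 did not pass the test. PMAIP1 (NOXA), a BH3-only protein, fell by 0.89 from 7.89 ± 1.01 to 4.27 ± 0.409 CPM, and APAF1, of the apoptosome, fell by 0.84 (SD, n = 3). The gene that rose was HRK, named after its values were seen, at 0.212 and 0.542 CPM. HRK did not keep an adjusted p under 0.05 when library 2 or library 3 of either group was left out. The plot of genes around the E2F factors shows each list.

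**Figure D4:**
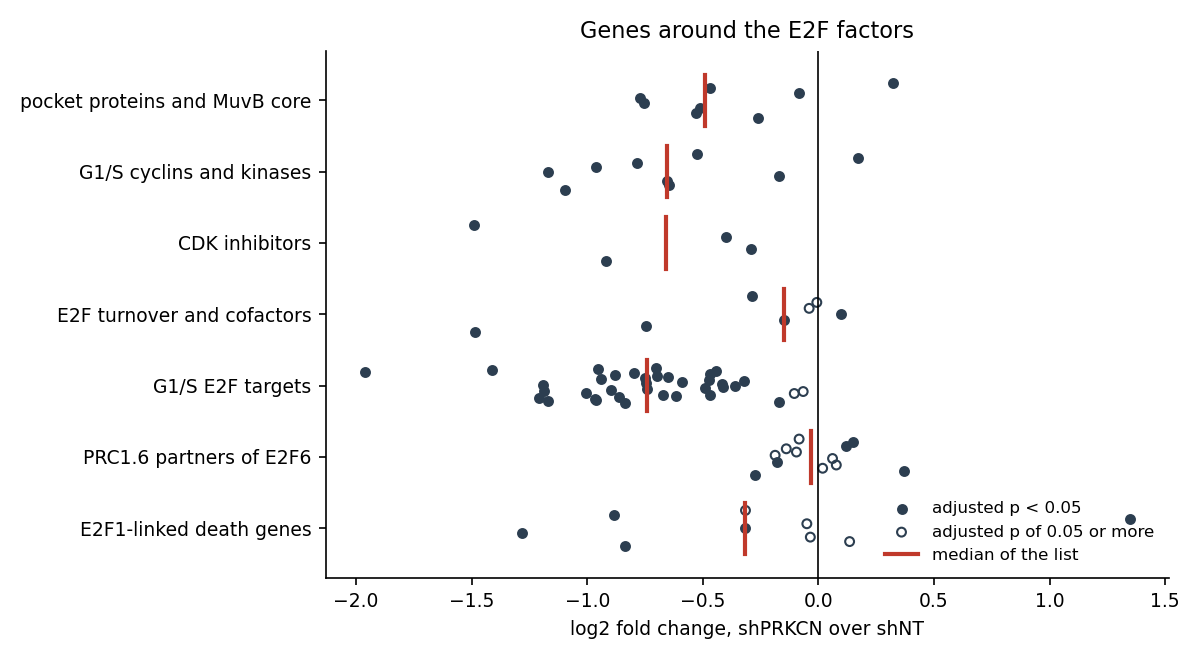
Log2 fold change (shPRKCN over shNT, x axis) of every tested gene in 7 lists; filled points had an adjusted p under 0.05 in the edgeR test, open points did not, and red bars are list medians. The G1/S targets lie left of 0 throughout, with a median of -0.74, while the PRC1.6 genes straddle 0 with a median of -0.03.

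On the genome (GRCh38.p14), E2F1 lies at chr20:33675477-33686385, E2F2 at chr1:23505212-23531233, E2F6 at chr2:11444375-11466161, E2F7 at chr12:77021251-77065569 and TFDP2 at chr3:141944428-142149544, all on the minus strand. E2F3 at chr6:20401879-20493714, E2F4 at chr16:67192155-67198918 and TFDP1 at chr13:113584688-113641473 lie on the plus strand. E2F5 lies at chr8:85177154-85214518 and E2F8 at chr11:19224063-19241655. The family is spread over 10 chromosomes, so that no 2 members are neighbours. E2F3, E2F4, E2F6 and TFDP1 have 10 RefSeq pseudogenes between them, none of which is listed in the count table, and how reads shared with them were handled is not known. The other RefSeq genes that overlap members and are listed, beside RBIS, had at most 10 counts in any library.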

How the data were processed

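RNA-seq was measured in 3 shNT and 3 shPRKCN libraries of MM.1S cells, grouped by the labels. The authors deposited raw counts per gene for 21850 genes, and FPKM for the same genes. For the members, the deposited FPKM match the deposited counts scaled by the library total and 1 length per gene. The submitters' processing notes name FastQC, HISAT2, StringTie and the GRCh38.p14 build. The counting program, the annotation and the strandedness are not given in the sources used here. The paper's methods name DESeq2 with limits on q (0.05) and on log2 fold change (0.58), and the same limits were used here. In both directions the paper reports more genes past these limits than were called here with edgeR or with DESeq2. The cause of this gap was not tested.

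The quasi-likelihood test of edgeR 4.0.16, run in R 4.3.3 after TMM scaling, covered the 13971 genes that filterByExpr kept, with group as the only term. CPM values use TMM-scaled totals. Standard errors and 95% intervals come from the same fit. Ratios of members were compared on FPKM by exact permutation (scipy 1.17.1). Before use, libraries were compared by chi-square over genes: per degree of freedom it came to 3.49 to 5.01 within groups and to 68.9 to 75.8 between groups, so no library repeated another. The totals of 35625564 to 37730003 counts set the precision, and the floor was set at 3 counts. The fits were tested on simulated data.

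The tests of all genes, members, list counts and named genes were computed again with DESeq2 1.42.0, with 3 other scalings (library size alone, upper quartile, RLE), without a filter or with a minimum of 10 counts per library, with a term for the replicate number (replicate block), with single libraries left out, with limma 3.58.1 on log2(FPKM + 0.1) or log2(FPKM + 1), the latter also with an FPKM of at least 1 in 3 libraries, and, for all but the lists, glmTreat against 0.58. Ratios were recomputed from counts and with single libraries left out, and the motif shares with the shorter cores TTCCCGC and TTGGCGC. FPKM shares, the order of levels and the correlations had no alternative. Where a group is left with 2 libraries the spread is pooled over both groups.

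All 10 members and PRKD3 are named. Of each list, the 2 lowest and 2 highest log2 fold changes past the adjusted p are named where the mean count reached 50, other genes were named after their values were seen, and some genes that the rule names are not reported here. The members and lists were chosen with earlier results of these data known. Sequences are from RefSeq (GRCh38.p14), and 8 members matched the table of start windows.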

Additional observations from a re-analysis of the deposited data

How the results depend on the processing

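Over 17 alternatives, all 170 log2 fold changes of the members kept their direction, and 169 kept their side of both limits for a call. The exception was E2F5 under glmTreat (adjusted p = 0.057), which left 0 members called higher. E2F3 passed the adjusted p in 9 of 16 alternatives (all but glmTreat, which tests another limit), and the other 9 members passed in all 16. Over all genes, 1475 were called lower and 859 higher. The counts were 651 and 317 with limma on log2(FPKM + 1), 635 and 310 with an FPKM of at least 1 in 3 libraries as well, and 821 and 339 with glmTreat. A pseudocount shrinks the fold change of low genes and glmTreat asks for more than the fold limit, and both leave fewer genes past it by construction. With single libraries left out, the median of the PRC1.6 list ran from -0.048 to 0.0051 (above 0 without the third shNT library), against -0.03, and the log2 fold change of RBIS from -0.17 to 0.050 (above 0 without the second shNT library), against -0.09. The cause was not tested.

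The same replicate numbers did not pair the libraries: deviations of same-numbered libraries correlated at -0.042, -0.013 and 0.0038. With the replicate block, 1463 genes were called lower and 854 higher, with 3 and 1 of the members among them, 6 members were lower and 4 higher by the adjusted p, and E2F3 had an adjusted p of 0.038. The block left 5 of 8 pocket protein and MuvB genes lower, without LIN37 (0.054) and RBBP4 (0.058). Depth limits mainly genes with few reads, such as STAG3 and HRK.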
